A study of Homo sapiens with 4 samples.

Results

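The OAS, IFIT and MX families are antiviral effector genes that cells switch on in response to interferon, and 10 of their human members are described here: OAS1, OAS2, OAS3, OASL, IFIT1, IFIT2, IFIT3, IFIT5, MX1 and MX2. They were chosen by gene name out of 23004 gene names in the deposited tables, and they account for 18 of 40255 listed transcripts. The choice was made with earlier results of these data known, so the counts of members given below are not independent of those results. RNA was sequenced from BEAS-2B cells, which derive from human bronchial epithelium and which the labels call immortalized and place in lung, after exposure to 100 µM formaldehyde for 48 h or with no exposure. Each group held 2 libraries, and all of them came from this same line. The labels give the dose and the time but not the compound, which the title of the series names, and they do not say whether the replicates were separate cultures, so that p-values measure only the spread between these libraries. The expression value is FPKM as the authors deposited it, a fragment number divided by transcript length and by the library's total of mapped fragments, and it was summed here over a gene's transcripts.

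The 3 families act at different points of the defence against viral RNA. OAS enzymes bind duplex RNA and make short chains of linked adenosines, which set off the cutting of viral and cellular RNA; OASL has lost that enzyme activity and instead supports the RNA sensor DDX58, also called RIG-I. IFIT proteins bind viral RNA through the state of its leading end and hold back its translation, and MX proteins are dynamin-like GTPases that assemble on viral nucleoprotein or capsids. Interferon binding to its receptors activates JAK kinases, and a complex that includes STAT2 and IRF9 then binds a promoter element, the interferon-stimulated response element (ISRE), through which such genes are transcribed. Airway epithelium is the site at which many respiratory viruses first meet these proteins.

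The promoter sequences are shown because the ISRE is the element through which these families are known to answer interferon. Promoter windows from RefSeq (build GRCh38.p14, 250 bases before to 50 after a start) were at hand for 6 of the 10 members, some with several starts, giving 9 windows; those of OAS2, OASL, IFIT2 and MX2 were not analysed here. The ISRE core was searched on both strands as GAAA, any 2 bases and GAAA, and was found in 7 of the 9 windows, belonging to 5 of the 6 members. Among all 35116 windows of the same length, 3.57% held it. The core was not particular to these families: 33 of 47 further interferon-stimulated genes with a window held it. So did 4 of 10 nucleic acid sensors and adaptors, 0 of 13 receptor, JAK, STAT and IRF genes, and 4.38% of all genes with a window. A form with a single free base, GAAANGAAA with N for any base, was searched on both strands after the first search had been seen; 5 of the 9 windows held it, against 3.12% of all windows, and in OAS3, IFIT3 and MX1 a match to it overlapped a match to the first form. At least 1 of these 2 forms was in 9 of the 9 windows, against 6.40% of all windows. The sequences below are the 250 bases before the start, 5′ to 3′, with matches to either form in capitals; a core on the minus strand reads TTTC, 2 bases and TTTC.
OAS1 (chr12:112906712-112906961, plus strand): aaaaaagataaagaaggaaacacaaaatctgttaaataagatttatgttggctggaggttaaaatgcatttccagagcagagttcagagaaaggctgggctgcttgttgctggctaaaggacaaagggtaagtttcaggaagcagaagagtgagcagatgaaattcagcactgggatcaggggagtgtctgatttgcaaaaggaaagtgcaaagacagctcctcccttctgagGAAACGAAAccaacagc
OAS3 (chr12:112938224-112938473, plus strand): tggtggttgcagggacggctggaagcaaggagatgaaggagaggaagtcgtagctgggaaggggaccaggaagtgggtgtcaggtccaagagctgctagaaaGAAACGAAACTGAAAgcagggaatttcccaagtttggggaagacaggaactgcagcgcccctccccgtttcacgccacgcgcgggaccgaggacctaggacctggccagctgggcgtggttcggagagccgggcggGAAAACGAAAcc
IFIT1 (chr10:89392373-89392622, plus strand): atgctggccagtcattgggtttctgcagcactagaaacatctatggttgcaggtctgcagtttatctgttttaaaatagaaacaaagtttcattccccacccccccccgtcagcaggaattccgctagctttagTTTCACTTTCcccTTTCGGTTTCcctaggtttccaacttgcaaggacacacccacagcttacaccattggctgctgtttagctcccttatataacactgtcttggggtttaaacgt
IFIT3, start 1 (chr10:89327747-89327996, plus strand): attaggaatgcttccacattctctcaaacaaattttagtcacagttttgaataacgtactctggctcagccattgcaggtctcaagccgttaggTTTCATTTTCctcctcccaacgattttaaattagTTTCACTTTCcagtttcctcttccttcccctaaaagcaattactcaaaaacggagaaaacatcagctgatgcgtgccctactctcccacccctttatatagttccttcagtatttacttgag
IFIT5 (chr10:89414318-89414567, plus strand): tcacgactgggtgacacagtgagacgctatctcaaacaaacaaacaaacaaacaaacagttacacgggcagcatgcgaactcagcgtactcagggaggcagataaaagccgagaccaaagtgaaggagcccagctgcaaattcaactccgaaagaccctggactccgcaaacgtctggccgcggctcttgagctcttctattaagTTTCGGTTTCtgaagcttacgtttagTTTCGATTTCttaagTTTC
MX1, start 2 (chr21:41425989-41426238, plus strand): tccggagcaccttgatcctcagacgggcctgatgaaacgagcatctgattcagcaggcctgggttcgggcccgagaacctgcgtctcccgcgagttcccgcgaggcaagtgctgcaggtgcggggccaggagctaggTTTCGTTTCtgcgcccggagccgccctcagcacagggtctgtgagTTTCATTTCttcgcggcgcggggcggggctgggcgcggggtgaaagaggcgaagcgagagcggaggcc

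The OAS1 window held only the form with a single free base, beginning 17 bases before the start. OAS3 had its cores at 143 and 12 bases before the start, IFIT1 at 116 and 103, and IFIT3 at 156 and 122 for its first start and at 94 and 51 for its second. IFIT5 had 3 cores, at 45, 19 and 4 bases before the start, and the last of them runs past the start, so that only its opening bases are printed. MX1 had the form with a single free base at 113 and 68 bases before its start 2. At start 1 that form lay 19 bases before and 6 bases after the start, and the 10-letter core lay 11 bases after it. The 10-letter core was also found at start 3. The gamma-activated site (GAS), another element of interferon signalling, was searched as TTCNNNGAA, which reads the same on either strand; it was in 2 of the 9 windows (OAS1 and MX1 start 3), against 7.66% of all windows. These are matches of letters and not measured binding sites. IFIT5, with 3 cores in its window, had the smallest difference of all members. Members without a window cannot be placed by their cores, and a relation between cores and differences was not tested.

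**Figure D1:**
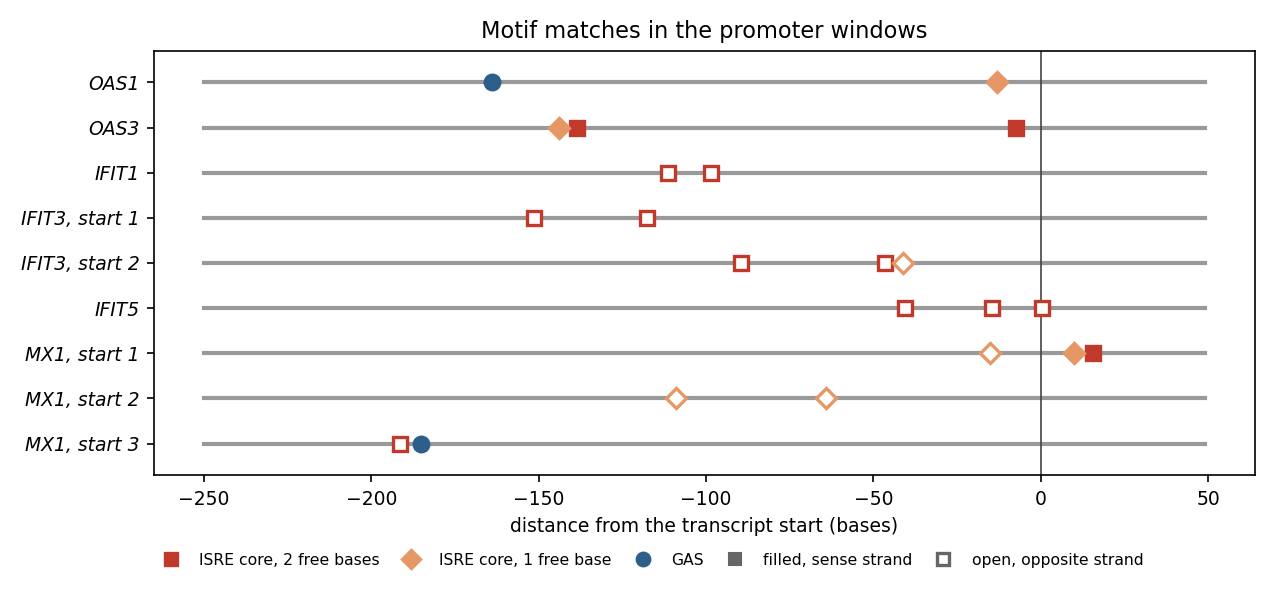
Positions of ISRE core and gamma-activated site matches in the 9 RefSeq promoter windows of 6 members; the x axis gives bases from the start, each row is 1 window, a mark sits at the centre of a match and is open on the opposite strand, and GAS is the gamma-activated site. Core matches begin within 156 bases before the start in OAS3, IFIT1, IFIT3 and IFIT5, and that of MX1 start 3 begins 196 bases before it.

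All 10 members had higher FPKM in both formaldehyde libraries than in both untreated libraries, while 16.2% of the 12407 genes tested did so and 10.7% showed the opposite. Ratios of mean FPKM ran from 1.48 for IFIT5 to 5.28 for OAS2, with a median of 3.65. The median log2 fold change of the 10 members was 1.63 on the log2(FPKM + 1) scale, against 0.03 over all genes tested. None of the 10 passed an adjusted p of 0.05 (limma, Benjamini-Hochberg over 12407 genes), a threshold that 0.0806% of the genes passed as higher and 0.0725% as lower; at an unadjusted p under 0.05, 9 of the 10 passed, against 1.93% of genes as higher. With 2 libraries against 2, the smallest p of an exact two-sided permutation test of a single gene is 0.333. In bulk RNA, a larger share of cells that express a gene and more RNA of it per cell cannot be told apart.

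The FPKM summed over the 10 members was 201.2 and 290.7 in the formaldehyde libraries, against 87.9 and 71.9 in the untreated libraries. The formaldehyde libraries were not equal: 9 of the 10 members were higher in formaldehyde replicate 2 than in replicate 1. Set against the untreated mean, the members' median log2 difference was 1.39 in formaldehyde replicate 1 and 1.72 in replicate 2. The untreated libraries lay 0.13 above and 0.13 below that mean.

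**Figure D2:**
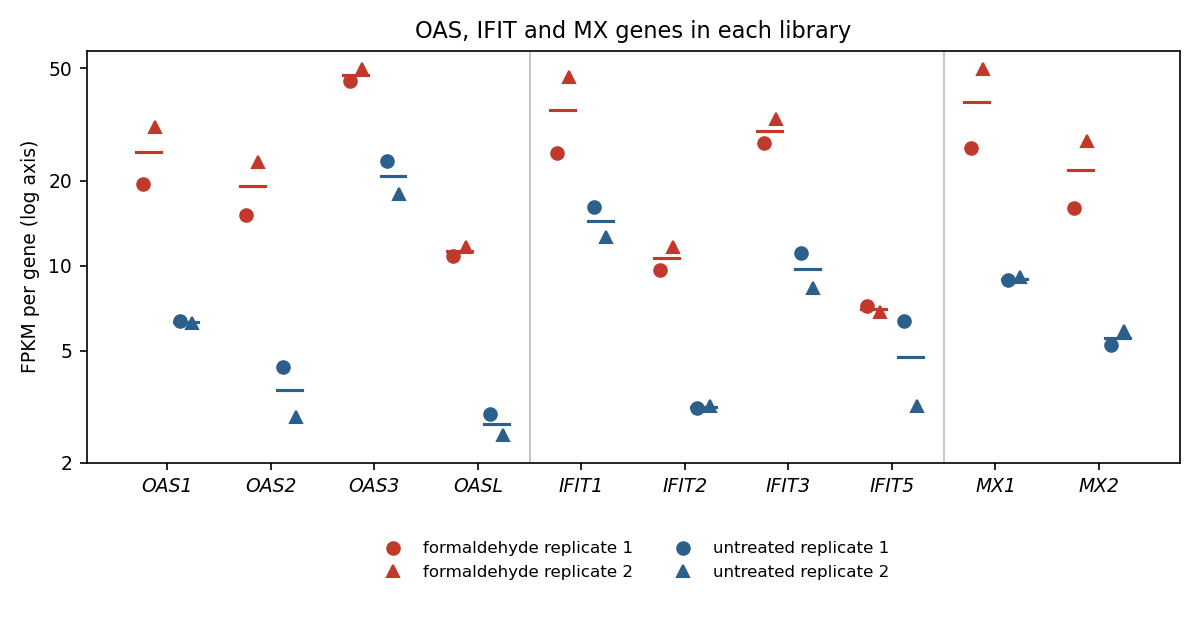
FPKM (log axis) of the 10 members in each library, formaldehyde at the left of untreated for each gene, with a point per library and a line at the group mean. The formaldehyde points lie above the untreated points for every member, by the narrowest margin for IFIT5.

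Depth was 14.2 and 22.2 M mapped fragments (M, mega) in the formaldehyde libraries and 16.8 and 26.5 M in the untreated libraries. Fragment numbers of the members, worked back from the deposited coverage, ran from 80.9 to 7087. An interval of 2 divided by the square root of that number, as in the deposited bounds, is 2.38% to 22.2% on either side of a library's value and covers counting error only. The number of genes at 1 FPKM or more was 12049 to 12379 per library. Sequence shared with other genes, measured as the percent of a member's distinct 51-base words found in transcripts of another gene, was at most 7.86% (IFIT2) and 0.00% for OAS2, OASL and IFIT5. Among the members only MX1 and MX2 had such words in common, 18 of them.

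OAS1 lies on chromosome 12 (hg19, 113344739 to 113357712, plus strand), followed by OAS3 (113376249 to 113411054) and OAS2 (113416274 to 113449528) in a row on the same strand, while OASL lies farther along the chromosome on the minus strand (121458095 to 121476780). All 4 were higher in both formaldehyde libraries, and the family's median log2 fold change was 1.76. OAS1, a small synthetase, had 19.4 and 31.0 FPKM in the formaldehyde libraries, against 6.35 and 6.27 FPKM in the untreated libraries. The untreated values were nearly the same, and both formaldehyde values lay far above them. Its mean was 25.2 ± 8.21 FPKM in formaldehyde and 6.31 ± 0.0536 FPKM in untreated cells (SD, n = 2 each), a 3.99-fold ratio, and its log2 fold change was 1.81 with a standard error of 0.28 (limma, adjusted p = 0.414).

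OAS2, a synthetase that works as a dimer, had 15.1 and 23.3 FPKM in the formaldehyde libraries, against 4.37 and 2.91 FPKM in the untreated libraries. The lowest formaldehyde value was well above the highest untreated value, and the 5.28-fold ratio of means was the largest among the 10 members. Its log2 fold change was 2.11 with a standard error of 0.30 (limma, adjusted p = 0.349). OAS3, the family member that responds best to long RNA duplexes, had 44.9 and 49.7 FPKM in the formaldehyde libraries, against 23.5 and 18.0 FPKM in the untreated libraries. It had the highest level of the 10 members in both groups and the smallest ratio of its family, 2.28-fold; its log2 fold change was 1.16 with a standard error of 0.22 (limma, adjusted p = 0.858). By the deposited bounds, its single transcript was read by 4102 and 7089 fragments in the formaldehyde libraries and by 2530 and 3055 in the untreated ones, so counting error was a small part of its spread.

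OASL had 10.8 and 11.6 FPKM in the formaldehyde libraries, against 2.98 and 2.51 FPKM in the untreated libraries. Its difference was the largest of the members relative to the standard error, with means of 11.2 ± 0.555 FPKM in formaldehyde and 2.75 ± 0.332 FPKM in untreated cells (SD, n = 2 each) and a 4.08-fold ratio. The log2 fold change was 1.71 ± 0.20 (SE), and its limma adjusted p of 0.185 was the smallest among the members.

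The IFIT genes form a cluster on chromosome 10, all on the plus strand: IFIT2 (hg19, 91061706 to 91069033), IFIT3 (91087602 to 91100725), IFIT1 (91152322 to 91163744) and IFIT5 (91174325 to 91180759). Their median log2 fold change was 1.34, with IFIT3 and IFIT2 highest and IFIT5 lowest. IFIT1, which binds RNA whose cap lacks the methylation of host messages, had 25.0 and 46.4 FPKM in the formaldehyde libraries, against 16.1 and 12.6 FPKM in the untreated libraries. The formaldehyde libraries differed widely from each other, and replicate 1 stood nearer to the untreated values than to replicate 2. Its mean was 35.7 ± 15.2 FPKM in formaldehyde and 14.3 ± 2.47 FPKM in untreated cells (SD, n = 2 each), a 2.49-fold ratio, and the log2 fold change was 1.20 with a standard error of 0.35 (limma, adjusted p = 0.9999). Without formaldehyde replicate 2 that log2 fold change was 0.77. Its single transcript carried 588.5 and 1708 fragments in the formaldehyde libraries, against 447.5 and 552 in the untreated libraries.

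IFIT2, which binds AU-rich RNA duplexes, had 9.61 and 11.6 FPKM in the formaldehyde libraries, against 3.13 and 3.17 FPKM in the untreated libraries. Its single transcript carried 450 and 851 fragments in the formaldehyde libraries and 173 and 276 in the untreated libraries. Both pairs of replicates were close, the ratio of means was 3.37-fold, and the log2 fold change was 1.48 with a standard error of 0.21 (limma, adjusted p = 0.338). IFIT3, which joins IFIT1 and IFIT2 in complexes and stabilizes IFIT1, had 27.1 and 33.0 FPKM in the formaldehyde libraries, against 11.1 and 8.30 FPKM in the untreated libraries. The groups were far apart, at a 3.10-fold ratio of means and a log2 fold change of 1.54 with a standard error of 0.24 (limma, adjusted p = 0.414).

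IFIT5, which binds RNA with exposed phosphates as a monomer, had 7.18 and 6.86 FPKM in the formaldehyde libraries, against 6.34 and 3.18 FPKM in the untreated libraries. The groups were separated only narrowly, since the lowest formaldehyde value was 1.08 times the highest untreated value, and untreated replicate 1 was close to the formaldehyde level. Its fragments numbered 391 and 584 in the formaldehyde libraries and 408 and 322 in the untreated libraries. The ratio of means was 1.48-fold and the log2 fold change 0.53 ± 0.32 (SE; limma adjusted p = 0.9999), the only member with an unadjusted p above 0.05. Leaving out untreated replicate 2 gave a log2 fold change of 0.13, and leaving out untreated replicate 1 gave 0.94, so the value rests on which untreated library is used.

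The MX genes lie side by side on chromosome 21 on the plus strand, MX2 (hg19, 42733950 to 42780869) before MX1 (42792520 to 42831141). MX1, the cytoplasmic GTPase known for blocking influenza viruses, had 26.2 and 49.6 FPKM in the formaldehyde libraries, against 8.90 and 9.09 FPKM in the untreated libraries. MX2, which sits at the nuclear envelope and is known for blocking HIV, had 15.97 and 27.6 FPKM in the formaldehyde libraries, against 5.23 and 5.86 FPKM in the untreated libraries. In both genes the untreated values were close together, and formaldehyde replicate 2 was well above replicate 1. The single transcript of MX2 carried 626.5 and 1692 fragments in the formaldehyde libraries, against 242 and 427.5 in the untreated libraries. MX1 averaged 37.9 ± 16.6 FPKM in formaldehyde and 8.996 ± 0.136 FPKM in untreated cells (SD, n = 2 each), a 4.21-fold ratio. MX2 averaged 21.8 ± 8.23 FPKM in formaldehyde and 5.54 ± 0.448 FPKM in untreated cells (SD, n = 2 each), a 3.93-fold ratio. The log2 fold changes were 1.89 ± 0.34 for MX1 (SE; limma adjusted p = 0.691) and 1.75 ± 0.31 for MX2 (SE; limma adjusted p = 0.645).

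**Figure D3:**
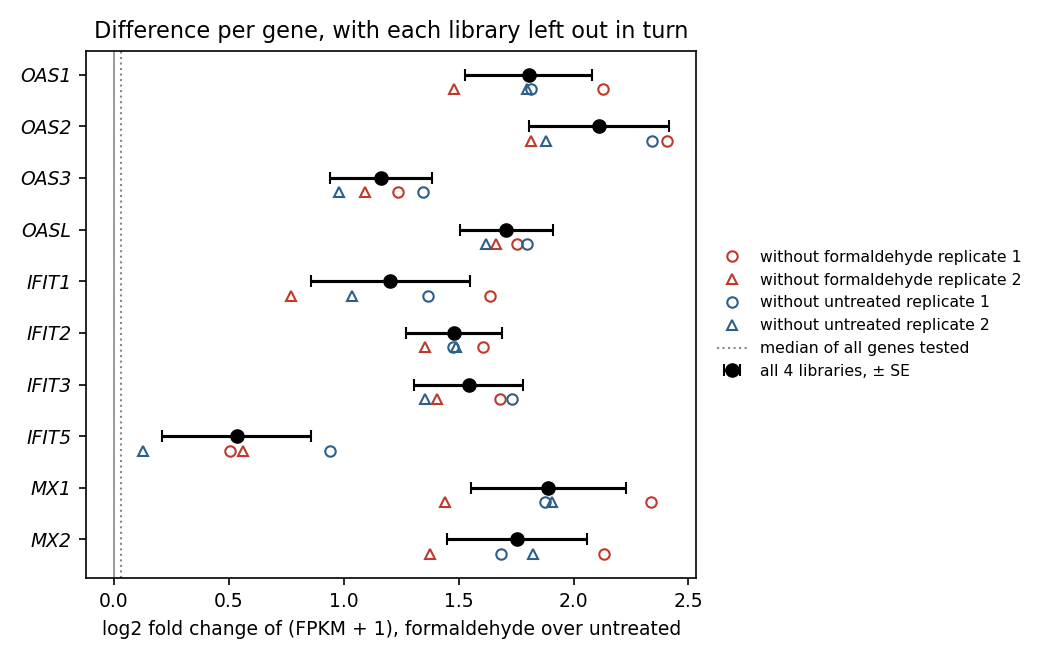
Log2 fold change of each member, formaldehyde over untreated, on the log2(FPKM + 1) scale with its standard error, with the value under each left-out library. All points lie above 0. Estimates from all 4 libraries run from 0.53 for IFIT5 to 2.11 for OAS2. Those with a library left out run from 0.13 for IFIT5 to 2.41 for OAS2, and MX1, IFIT1 and IFIT5 shift most.

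The order of the members by mean FPKM in formaldehyde cells was OAS3, MX1, IFIT1, IFIT3, OAS1, MX2, OAS2, OASL, IFIT2 and IFIT5. Libraries of neighbours in that order overlapped except between OAS2 and OASL and between IFIT2 and IFIT5. In untreated cells it was OAS3, IFIT1, IFIT3, MX1, OAS1, MX2, IFIT5, OAS2, IFIT2 and OASL. There, neighbours overlapped only between IFIT3 and MX1, MX2 and IFIT5, IFIT5 and OAS2, and OAS2 and IFIT2. OASL was last in untreated cells and above IFIT2 and IFIT5 in formaldehyde cells, and IFIT5 was last in formaldehyde cells and above OAS2, IFIT2 and OASL in untreated cells.

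Of the members, 5 had several listed transcripts, 13 in all, and the other members had a single transcript each. Of the 18 transcripts, 17 were higher in both formaldehyde libraries than in both untreated libraries. Of those that reached the filter of 1 FPKM in the mean of all 4 libraries, 16 of 16 were so. Among the 16722 transcripts tested, 15.3% were so. The OAS2 transcript NM_001032731 passed that filter only through its formaldehyde libraries, with means of 2.31 FPKM there and 0.885 FPKM in untreated cells. None of the 16 passed an adjusted p of 0.05 (limma), against 0.0419% of transcripts as higher and 0.0239% as lower. The deposited bounds, which cover counting and assignment of reads within a library, lay higher and apart in both formaldehyde libraries for 13 of the 16 tested, while 3.91% of all transcripts tested showed this; the bounds of IFIT5 overlapped between groups.

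OAS1 had 3 listed transcripts that differ in the last part of the protein. NM_002534, of 364 codons, had 11.6 and 14.5 FPKM in the formaldehyde libraries, against 3.58 and 3.18 FPKM in the untreated libraries. NM_016816, of 400 codons, had 5.80 and 15.2 FPKM in the formaldehyde libraries, against 2.77 and 3.09 FPKM in the untreated libraries. Both forms were higher with formaldehyde, but the deposited bounds for NM_016816 in formaldehyde replicate 2 ran from 2.03 to 28.3 FPKM, so that library did not fix its level. NM_001032409, of 414 codons, had 1.98 and 1.31 FPKM in the formaldehyde libraries, against values of at most 2.7e-05 FPKM in the untreated libraries; its bounds in formaldehyde replicate 2 reached 0, and no ratio is given.

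OAS2 had NM_016817 of 719 codons, NM_002535 of 687 codons and a short form, NM_001032731, of 172 codons. NM_016817 had 5.83 and 10.2 FPKM in the formaldehyde libraries, against 1.63 and 0.879 FPKM in the untreated libraries. NM_002535 had 6.93 and 10.8 FPKM in the formaldehyde libraries, against 1.80 and 1.20 FPKM in the untreated libraries. The short form had 2.37 and 2.25 FPKM in the formaldehyde libraries, against 0.941 and 0.829 FPKM in the untreated libraries. All 3 were higher, the short form least, and its share of the gene's FPKM was 15.7% and 9.65% in the formaldehyde libraries, against 21.6% and 28.5% in the untreated libraries.

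MX1 had 3 listed transcripts with the same coding sequence of 662 codons, which differ outside it. NM_002462 had 18.3 and 27.2 FPKM in the formaldehyde libraries, against 4.47 and 5.46 FPKM in the untreated libraries. NM_001178046 had 5.89 and 19.3 FPKM in the formaldehyde libraries, against 2.92 and 2.45 FPKM in the untreated libraries. NM_001144925 had 2.02 and 3.05 FPKM in the formaldehyde libraries, against 1.51 and 1.18 FPKM in the untreated libraries. The last was higher by the smallest margin, and its share of the gene was 7.72% and 6.15% in the formaldehyde libraries, against 17.0% and 13.0% in the untreated libraries. These shares are the authors' estimates of how reads divide between transcripts, and no test was made on them.

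The remaining genes with several transcripts were OASL and IFIT3. For OASL, NM_003733 of 514 codons carried nearly all of the signal, and NM_198213 of 255 codons reached 0.32 FPKM in untreated replicate 2 and was near 0 elsewhere. NM_003733 had 10.8 and 11.6 FPKM in the formaldehyde libraries, against 2.98 and 2.19 FPKM in the untreated libraries, and its limma adjusted p of 0.733 was the smallest among the members' transcripts. The IFIT3 transcripts NM_001549 and NM_001031683 both encode 490 codons. NM_001549 had 15.0 and 16.8 FPKM in the formaldehyde libraries, against 7.22 and 3.48 FPKM in the untreated libraries. NM_001031683 had 12.04 and 16.2 FPKM in the formaldehyde libraries, against 3.88 and 4.81 FPKM in the untreated libraries, so both IFIT3 forms were higher.

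**Figure D4:**
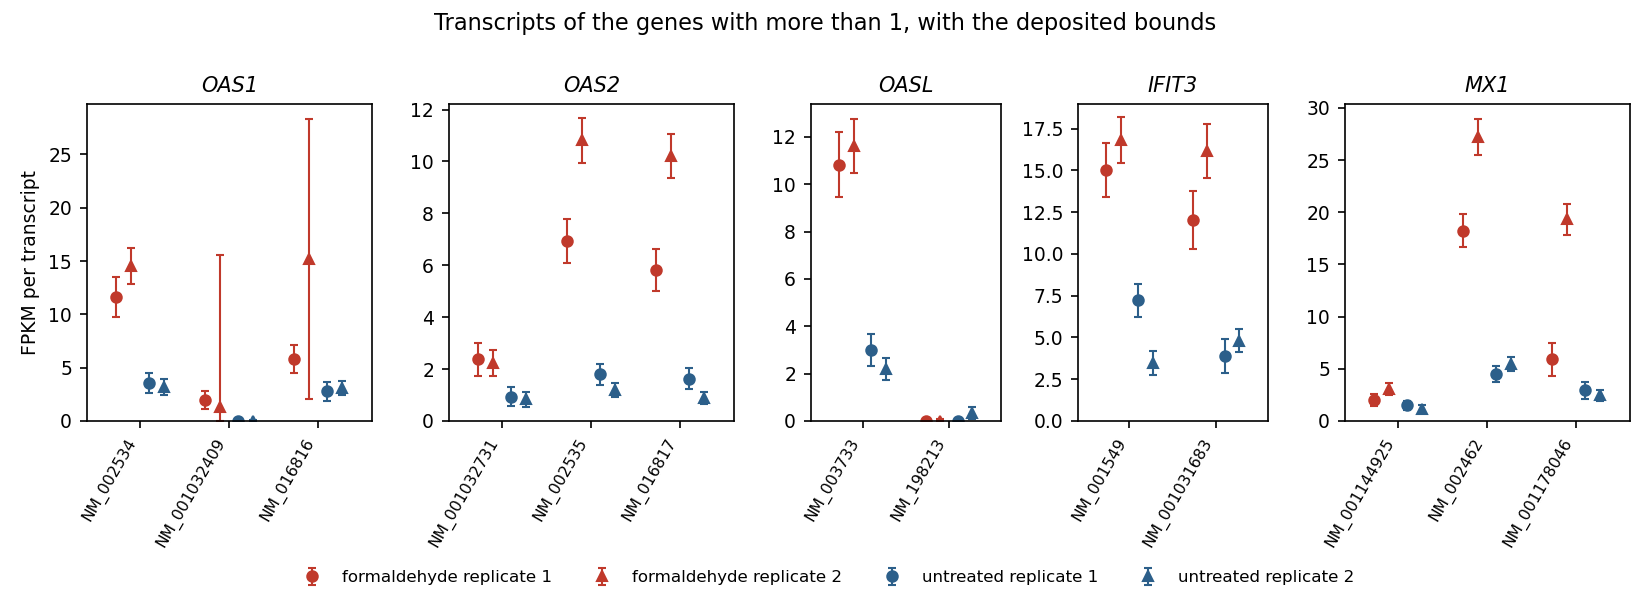
FPKM of each transcript of the 5 members with several listed transcripts, formaldehyde libraries at the left of untreated libraries, with the authors' bounds as bars. The main forms of OAS1, OAS2, OASL, IFIT3 and MX1 are higher in both formaldehyde libraries, and the bounds of OAS1 NM_016816 in formaldehyde replicate 2 span 2.03 to 28.3 FPKM.

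The rest of the interferon pathway was read from lists, starting at its ligands. Of 21 interferon genes found in the tables, 18 were listed at 0 in all 4 libraries and none reached the filter of 1 FPKM. IFNB1, the interferon that many non-immune cells make first, had 0.111 and 0 FPKM in the formaldehyde libraries, against 0.0936 and 0.0594 FPKM in the untreated libraries. IFNL1, an epithelial interferon, had 0.108 and 0 FPKM in the formaldehyde libraries, against 0.0913 and 0 FPKM in the untreated libraries. Both lay at or near the lower end of detection in both groups, and no difference was detectable at this depth.

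Of 18 tested receptor, JAK, STAT and IRF genes, 5 were higher and 3 lower in both formaldehyde libraries. Of all genes tested, 16.2% were higher and 10.7% lower. None of the 18 passed the adjusted threshold, and their median log2 fold change was 0.03. IRF9, a subunit of the complex that binds the ISRE, was among the 5. IRF9 had 26.4 and 31.8 FPKM in the formaldehyde libraries, against 15.6 and 15.3 FPKM in the untreated libraries. STAT2, another subunit, had 19.7 and 26.1 FPKM in the formaldehyde libraries, against 21.2 and 28.1 FPKM in the untreated libraries, so its groups overlapped. The log2 fold changes were 0.87 ± 0.20 for IRF9 and -0.10 ± 0.25 for STAT2 (SE; limma adjusted p = 0.9999 for each). IRF7, a factor that drives interferon genes, had 20.3 and 36.2 FPKM in the formaldehyde libraries, against 13.1 and 18.9 FPKM in the untreated libraries.

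Among 13 tested sensors of nucleic acids and their adaptors, 5 were higher and 1 lower in both formaldehyde libraries. Of all genes tested, 16.2% were higher and 10.7% lower. The median log2 fold change of the 13 was 0.30, and none passed the adjusted threshold. DDX58, the sensor that OASL supports, had 9.81 and 10.4 FPKM in the formaldehyde libraries, against 5.66 and 3.89 FPKM in the untreated libraries. IFIH1, a sensor of long RNA duplexes, had 4.17 and 4.93 FPKM in the formaldehyde libraries, against 3.02 and 2.62 FPKM in the untreated libraries. In both genes the formaldehyde libraries lay above the untreated ones.

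ABCE1, PDE12 and AKAP7, listed for their part in the pathway of the OAS products, had overlapping groups and none passed the adjusted threshold. ABCE1, which also recycles ribosomes, had 25.6 and 16.3 FPKM in the formaldehyde libraries, against 21.8 and 9.67 FPKM in the untreated libraries. PDE12, a phosphodiesterase that degrades the OAS products, had 9.66 and 5.98 FPKM in the formaldehyde libraries, against 6.95 and 5.27 FPKM in the untreated libraries. The log2 fold changes were 0.46 for ABCE1, 0.29 for PDE12 and 0.12 for AKAP7 (limma, adjusted p = 0.9999 for each). The sign turned when 1 library was left out: untreated replicate 2 for ABCE1, formaldehyde replicate 1 for PDE12 and formaldehyde replicate 2 for AKAP7.

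Of 54 further interferon-stimulated genes, 49 were tested. In both formaldehyde libraries 38 of those were higher and 0 lower, against 16.2% and 10.7% of all genes tested. The median log2 fold change of the 49 was 0.57. IFI27, a mitochondrial protein gene, was the only one past the adjusted threshold. It had 135.5 and 135.3 FPKM in the formaldehyde libraries, against 17.6 and 14.5 FPKM in the untreated libraries, and it rose by a log2 fold change of 3.003 with a standard error of 0.20 (limma, adjusted p = 0.0212). With each library left out in turn the adjusted p was 0.0809 to 0.135 and the log2 fold change 2.87 to 3.13; those fits hold a group of 1 library, which is assumed to vary like the other group, so the lost call says nothing about stability. ISG15, a ubiquitin-like modifier, had 722.5 and 446.6 FPKM in the formaldehyde libraries, against 123.4 and 100.5 FPKM in the untreated libraries. IFI6 had 718.5 and 778.3 FPKM in the formaldehyde libraries, against 176.2 and 217.2 FPKM in the untreated libraries. These levels were higher than those of any of the 10 members in the same libraries. Like IFIT5 and unlike the other members, ISG15 was higher in formaldehyde replicate 1 than in replicate 2.

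Of 10 tested negative regulators of interferon signalling, 2 were higher and 1 lower in both formaldehyde libraries. These counts are near the shares of all genes tested, 16.2% and 10.7%. None of the 10 passed the adjusted threshold, and their median log2 fold change was 0.02. USP18, which is itself interferon-stimulated and blocks the receptor, had 13.7 and 19.1 FPKM in the formaldehyde libraries, against 6.80 and 7.51 FPKM in the untreated libraries. SOCS3, a feedback inhibitor of JAK kinases, had 10.8 and 15.6 FPKM in the formaldehyde libraries, against 15.4 and 32.2 FPKM in the untreated libraries, so its groups overlapped.

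**Figure D5:**
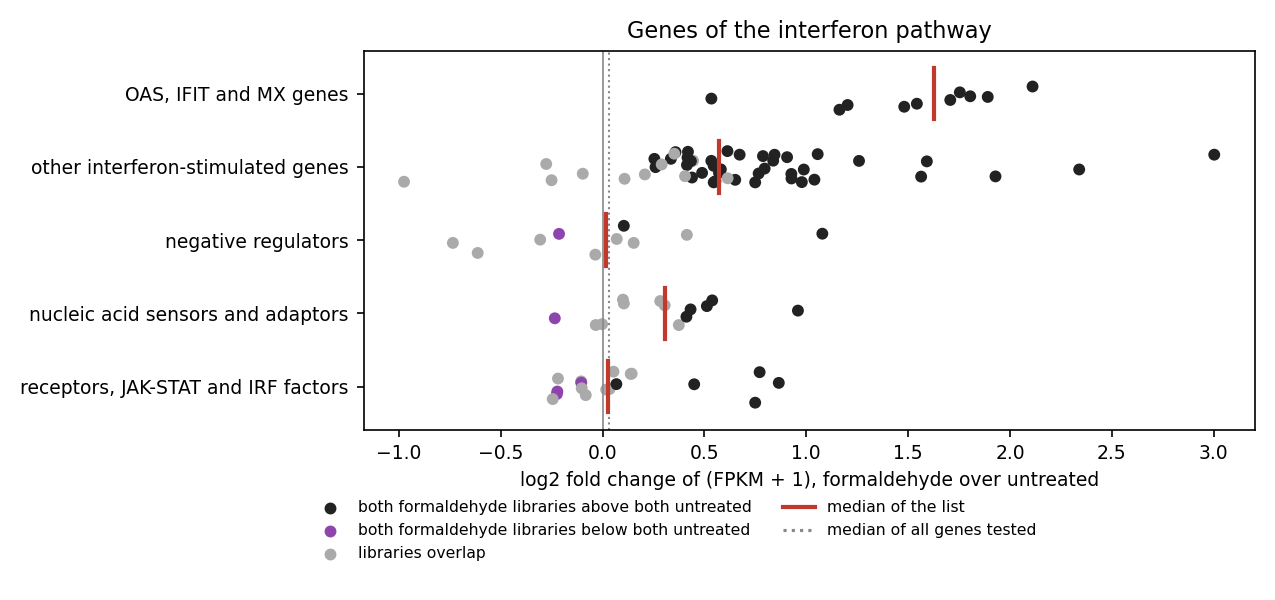
Log2 fold change, formaldehyde over untreated on the log2(FPKM + 1) scale, of every tested gene in 4 lists of the interferon pathway and of the 10 members, with a bar at each list's median. The members' median is 1.63, that of further interferon-stimulated genes 0.57, and that of receptors and signalling genes 0.03.

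The 5 genes outside the families whose centred log2 profile over the 4 libraries lay nearest to the mean profile of the members, among genes of at least 5 FPKM in the mean and with a transcript of at least 300 nt, were IL1B, IFI44, PLSCR1, XAF1 and USP18. Their distances on that scale ran from 0.424 to 0.510, and the members' own ran from 0.159 for IFIT3 to 1.12 for IFIT5. IL1B, an inflammatory cytokine gene, had 56.1 and 50.5 FPKM in the formaldehyde libraries, against 20.6 and 16.6 FPKM in the untreated libraries. IFI44 had 8.73 and 8.16 FPKM in the formaldehyde libraries, against 2.03 and 2.23 FPKM in the untreated libraries. With 4 libraries in 2 groups, genes can lie near such a profile without any other link to the members. Of 8673 candidate genes, 271 lay nearer than the farthest member, IFIT5, at 1.12. That is a wide limit, since the next farthest member, OAS2, lay at 0.621.

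Markers of cell types were read in the same libraries. Of 9 epithelial markers, 6 were tested and 3 of those were higher in both formaldehyde libraries, against 16.2% of all genes tested. The 3 were KRT7, KRT18 and KRT8. KRT7 had 531.5 and 318.8 FPKM in the formaldehyde libraries, against 191.3 and 140.1 FPKM in the untreated libraries. KRT18 had 358.3 and 417.9 FPKM in the formaldehyde libraries, against 225.5 and 206.4 FPKM in the untreated libraries. KRT8 had 446.6 and 416.0 FPKM in the formaldehyde libraries, against 291.4 and 290.4 FPKM in the untreated libraries. KRT17 had 61.2 and 48.0 FPKM in the formaldehyde libraries, against 26.4 and 178.4 FPKM in the untreated libraries, and KRT17 and KRT14 had log2 fold changes of -0.35 and -0.44 with overlapping groups. KRT5 was listed at 0 in all 4 libraries, and KRT19 and CDH1 were under 1 FPKM in all of them and lower in both formaldehyde libraries, so these epithelial markers were absent or low in a line labelled as lung. The summed FPKM of the epithelial list was 1401 and 1205 in the formaldehyde libraries, against 736.2 and 823.7 in the untreated libraries. Fibroblast markers summed to 284.5 and 441.9 FPKM in the formaldehyde libraries, against 444.9 and 802.5 FPKM in the untreated libraries; 4 of the 8 (COL3A1, DCN, LUM and PDGFRA) were under 1 FPKM in all libraries, and COL1A1 had 137.4 and 254.4 FPKM in the formaldehyde libraries, against 278.6 and 567.8 FPKM in the untreated libraries. The part of these shifts in the members' values was not tested. Leukocyte markers, of which 3 of 15 reached the filter, summed to 51.8 and 32.7 FPKM in the formaldehyde libraries, against 18.5 and 31.5 FPKM in the untreated libraries. CD68 had 42.8 and 22.04 FPKM in the formaldehyde libraries, against 12.8 and 16.4 FPKM in the untreated libraries. CD14 had 1.77 and 6.23 FPKM in the formaldehyde libraries, against 3.75 and 11.98 FPKM in the untreated libraries, and its groups overlapped. CORO1A had 4.75 and 4.02 FPKM in the formaldehyde libraries, against 1.53 and 2.69 FPKM in the untreated libraries. The defining leukocyte genes CD3E, MS4A1, TYROBP and AIF1 were listed at 0 in all libraries, and PTPRC had at most 0.023 FPKM. Endothelial markers summed to at most 0.369 FPKM in every library.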

How the data were processed

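Total RNA of BEAS-2B cells was sequenced, per the labels. Each deposited file gives 1 library's Cufflinks estimates for the same 40255 transcripts, in FPKM by the authors with bounds of an interval and a coverage, per the file attributes. The builds hg19 and GRCh37 and the tools STAR 2.5.2, Cufflinks 2.0.2 and FastQC 0.10.0 are named in the submitters' processing notes. How reads were trimmed, how multi-mapped ones were treated and which strand was counted is not given in the sources used here, and no other listed gene overlaps a member. The 894 transcripts with no gene name were left out, and the others were summed by gene name. Depth and fragment numbers were recovered from the deposited bounds and coverage, with a read length of 51 nt; no count test was run.

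Genes (12407) and transcripts (16722) with a mean of at least 1 FPKM were compared between formaldehyde and untreated libraries, on log2(FPKM + 1), by limma 3.58.1 (R 4.3.3, eBayes with a trend, no covariate). Tests were two-sided and adjusted after Benjamini and Hochberg over the whole table. The scale understates changes of low genes; plain ratios are of mean FPKM. The members and the gene lists were chosen with earlier results of these data known. Named genes were the 10 members, up to 4 genes per list with the largest absolute moderated t (not all are printed, and the results for some listed genes are not reported here), the 5 nearest in profile, and STAT2, IRF9, IFNB1 and IFNL1; KRT5, KRT14, KRT17, KRT19, CDH1 and the markers named for their low values were chosen after their values were seen. Coordinates of genes are hg19 as in the files; promoter windows are of GRCh38.p14 and were joined by gene symbol only. Alternatives covered the pseudocount (0.1), the filter, scaling, transcript length, eBayes settings, a replicate block and each library left out. Figures were drawn with matplotlib 3.10.9.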

Additional observations from a re-analysis of the deposited data

How the results depend on the processing

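Over 15 alternatives the members' log2 fold changes kept their sign in 150 of 150 values, and 0 of 10 members passed the adjusted threshold under any of them; 0 of their transcripts did under the 14 alternatives run on transcripts. That count of signs was largely fixed in advance. Both formaldehyde libraries lay above both untreated ones for every member, so leaving a library out could not turn a sign. The filter, transcript length, eBayes and block settings left the members' estimates unchanged. With a library left out, the lone library of its group is assumed to vary like the other group. The members' median log2 fold change was 1.39 to 1.72 with a library left out. The labels number the libraries 1 and 2 in each group; with 2 pairs only, and a correlation of 0.25 between the deviations of the libraries across 12407 genes, the numbers are not shown to pair them. With the replicate number as a block, 14 genes were called higher and 15 lower, against 10 and 9, the members' median stayed at 1.63, and OASL had the smallest adjusted p among the members, 0.0836; the calls of transcripts fell to 0 and 0, against 7 and 4. All-gene calls were 0 and 0 with no filter, and 1 and 0 with transcripts of at least 300 nt. They ranged from 3 to 44 higher and 10 to 49 lower with a library left out. Transcript calls were also 0 and 0 with no filter, at 300 nt, without a trend and with any library left out, 4 and 2 with median ratios, and 4 higher with quantiles. The other pathway genes had 0 called, against 1 (IFI27), with no filter and with any library left out. Scaling moved the share of genes separated as higher and lower, 16.2% and 10.7%, to 14.1% and 13.4% with median ratios, 12.2% and 14.6% with the FPKM sum, and 13.8% and 12.6% with quantiles.

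With each library left out in turn, the log2 fold change ran from -0.089 to 1.005 for ABCE1 (negative without untreated replicate 2), from -0.0039 to 0.24 for AKAP7 (negative without formaldehyde replicate 2), from -0.017 to 0.59 for PDE12 (negative without formaldehyde replicate 1), from -0.42 to 0.077 for the fibroblast marker THY1 (positive without untreated replicate 2) and from -0.297 to 0.092 for STAT2 (positive without formaldehyde replicate 1 or untreated replicate 2). That of STAT2 was 0.036 with the highest transcript of each gene. The cause was not tested.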
